A study of Mus musculus with 310 samples.

Results

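The genes followed here encode the enzymes of sterol synthesis, the enzymes that supply, elongate and desaturate fatty acids, and the regulators that set their transcription. They were taken from a list of 32 mouse genes by symbol, and 31 of them are among the 14068 genes of the single-cell count table. By role, 6 belong to the mevalonate arm, 11 to the squalene and sterol arm, 5 are regulators, 4 supply acetyl-CoA, malonyl-CoA or NADPH, 3 are elongases and 2 are desaturases. Expression of the desaturase gene Fads2, also on the list, is not analysed here.

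The study asks whether a wound leaves lasting changes in hair follicle stem cells of ageing mice, and profiled single keratinocytes of tail skin. All mice were of a CBA C57BL/6 mixed strain and carried Lrig1-EGFP-ires-CreERT2 and Rosa26-fl/STOP/fl-tdTomato, and each had received hydroxytamoxifen once on the tail, so that tdTomato marked cells that expressed Lrig1 at that time and their progeny. The time given for every cell is 38 weeks, and the labels do not say from which event it counts. The 145 cells labelled 38w came from RepI (70 cells) and RepL (75 cells), and the 165 cells labelled 38wUW from RepM (82 cells) and RepN (83 cells). What UW stands for is not given in the labels, nor is the wounded group named, so all differences are given as 38w against 38wUW, with no statement on wounding. Several mice entered each experiment of the study, and the labels do not tie cells to mice, so that the p-values measure the spread between these 4 samples, which may be technical.

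Cells make cholesterol from acetyl-CoA through mevalonate, farnesyl diphosphate, squalene and lanosterol. The transcription factors SREBP1 and SREBP2, encoded by Srebf1 and Srebf2, drive these genes when sterol is low. SCAP escorts them out of the endoplasmic reticulum, and INSIG1 holds SCAP back when sterol is plentiful. In skin, sebocytes store wax esters and triglycerides and depend on the nuclear receptor PPARG. Differentiating keratinocytes make cholesterol, ceramides and very long fatty acids for the water barrier, for which ELOVL4 is the elongase of ultra-long chains.

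Sequence upstream of the genes was read from RefSeq promoter windows on GRCm38.p6, which run from 250 bases before to 50 bases after each start. Of the 32 genes, 27 had a window. A search on both strands for the sterol response element letters TCACNCCAC matched 1 of these 27, Hmgcs1, against 1.44% of 27025 genes with a window. The letters CCAAT, the box bound by NF-Y, which works beside SREBP at many sterol genes, were found in 24 of the 27 (88.9%), against 41.1% of the 27025 genes and 43.1% of the 11050 genes that are also in the count table. A match describes the letters and does not show a bound site. The 160 bases before the start of Hmgcs1 (plus strand) hold both motifs, in capitals, with TCACNCCAC beginning 137 bases before the start and CCAAT, read here as its complement ATTGG, at 45 bases. The shorter lines give 12 bases on each side of the CCAAT letters nearest to a start, for those genes with the smallest p between groups that had a match. The match begins 55 bases before the start in Msmo1, 208 in Me1, 14 in Mvk, 62 in Lss and 30 in Srebf1.
Hmgcs1 at chr13:119690191-119690350: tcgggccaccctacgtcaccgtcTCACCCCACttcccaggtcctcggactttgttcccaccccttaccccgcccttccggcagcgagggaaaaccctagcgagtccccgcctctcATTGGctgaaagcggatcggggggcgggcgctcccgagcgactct
Msmo1 at chr8:64733617-64733645, minus strand: gagtggggcggaCCAATtacgacaggcga
Me1 at chr9:86687469-86687497, minus strand: gcctcacatggtATTGGtattttgcacat
Mvk at chr5:114444243-114444271, plus strand: tccagctctctgATTGGcctcaggaagac
Lss at chr10:76531531-76531559, plus strand: ggtgatgctctgATTGGccgagctcgcat
Srebf1 at chr11:60210485-60210513, minus strand: gcgcggctgctgATTGGccatgtgcgctc

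A cell had 11711 to 721564 reads (median 61294), and a replicate 5472070 to 12946742. PCR copies could not be removed, because the libraries had no molecular identifiers, so every interval or upper limit below is for counting error only. Plate C114, which holds 53 of the 70 cells of RepI, stood apart from the others. The median share of reads from ribosomal protein genes was 31.9% on C114 and 3.64 to 6.91% on the other 4 plates. Markers of other cells were low in all replicates. Levels in this paragraph are CPM (reads scaled to the size of the library) without TMM factors, and CPM in later paragraphs include TMM factors. The summed level was 0 to 3.48 for the 1 adipocyte marker measured of 4, and 0.514 to 1.72 for 1 of 6 immune markers. It was 8.27 to 62.7 for 4 of 5 fibroblast markers and 7.11 to 15.1 for 2 of 4 melanocyte markers. Pecam1, the 1 endothelial marker measured of 2, was the exception with 1264 to 8773 CPM, and its part in the results was not tested. In the names of 15 columns stands a suffix that the labels do not explain, IDTILL in 13 on C114 and MBULK in 2. Of these, 11 share a well name with another column of C114, and in 2 of the 11 pairs that column was the one on the plate with the highest correlation of log-scaled counts (Pearson r 0.45 to 0.72 over genes in the 11 pairs). All were counted as cells, and the counts of called genes were the same without them. The keratinocyte genes Krt14 and Krt5 reached 825 to 19615 and 407 to 1988 CPM.

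Every one of the 310 cells had a read of at least 1 of the 31 genes. Hmgcs1, whose enzyme makes the precursor of mevalonate, was found in most cells (212 of 310, 68.4%), followed by the desaturase gene Scd2 (182 cells, 58.7%) and Srebf2 (179 cells, 57.7%). Acss2, an acetyl-CoA synthetase, was found in 20 cells (6.45%) and Fads1 in 8 (2.58%). Divided by the length of the longest coding transcript, the mean level over the 4 replicates was highest for Hmgcs1 (84.8 CPM per kilobase), Msmo1 (78.8), Idi1 (63.6) and Elovl4 (48.3). Between replicates these levels ranged from 27.5 to 124 for Hmgcs1, 16 to 161 for Msmo1, 5.48 to 99.4 for Idi1 and 22.6 to 115 for Elovl4, so that the order of these neighbours lay within their spread. The lowest were Pparg (2.48 CPM per kilobase), Acss2 (1.56), Tm7sf2 (1.09) and Fads1 (0.557).

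**Figure D1:**
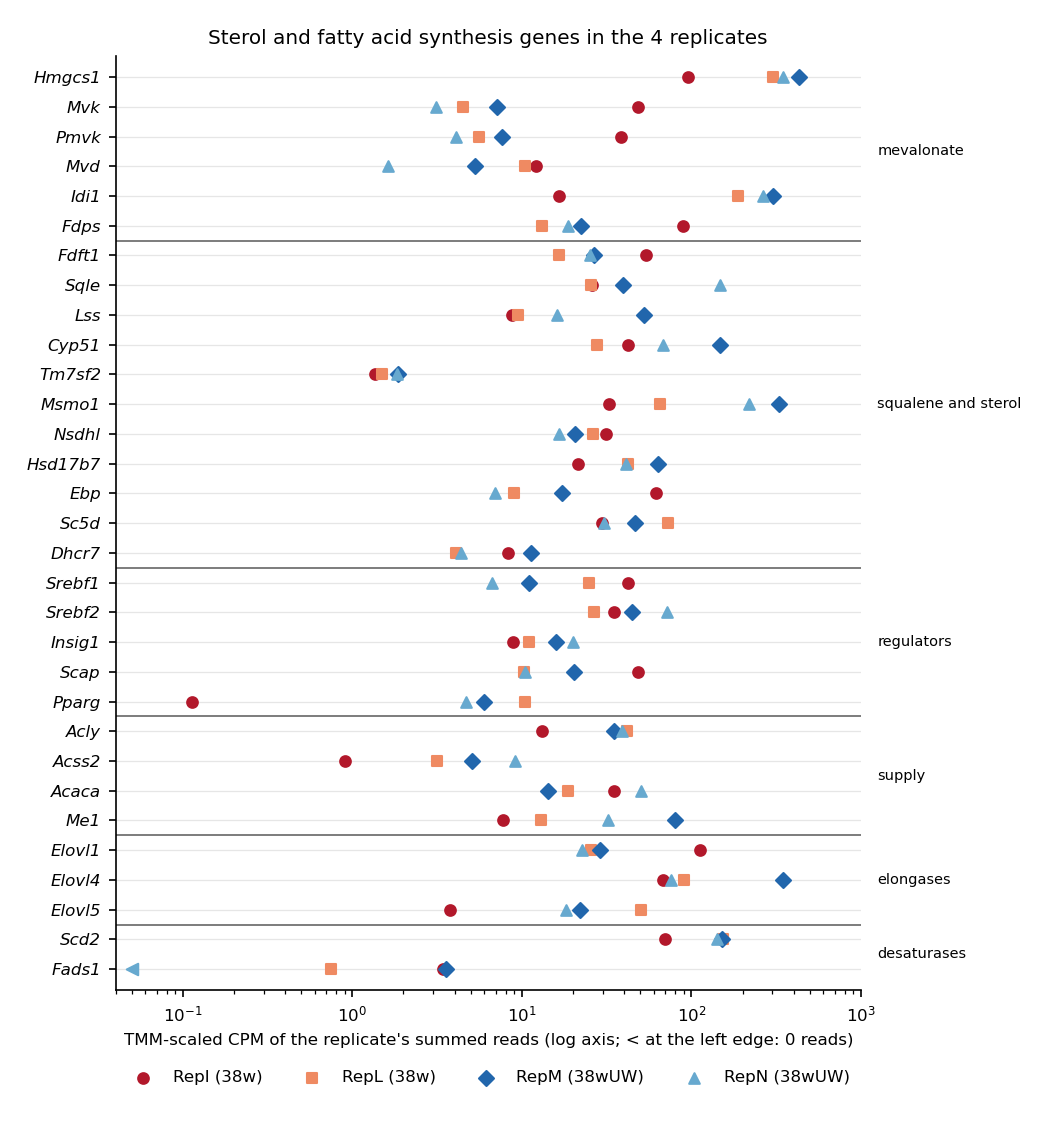
TMM-scaled CPM (log axis) of each of the 31 genes in the summed reads of the 4 replicates, with genes in rows by role, 38w in red tones and 38wUW in blue tones, and a triangle at the left edge for the 1 value of 0 (Fads1 in RepN). Msmo1 and Me1 lie lower in both 38w replicates than in both 38wUW replicates, and RepI stands away from the other replicates in genes such as Mvk, Idi1 and Pparg.

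Between 38w and 38wUW, no gene of the set passed the test. With reads summed per replicate, the quasi-likelihood test of edgeR with Benjamini-Hochberg adjustment called 0 of the 31 genes, and 0 of 11760 genes in all (0%). At an unadjusted p under 0.05 there were 2 of the 31, Msmo1 and Me1, where 8.07% of all tested genes reached it. DESeq2 called 0 of the 31, against 0.578% of all tested genes, with 6 at an unadjusted p under 0.05, against 12.7%. The median log2 difference of the set was -0.33, against 0.12 over all tested genes, and 18 of the 31 lay below 0. The sign of this median rested on RepM, without which it was 0.07, and it was -0.02 without the cells scored as infundibular below. In such sums, fewer cells of a type and less RNA per cell cannot be told apart.

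Both 38w replicates lay below both 38wUW replicates in 11 of the 31 genes, where 20.8% of all tested genes did, and above them in 3, where 17.7% did. The 11 were Hmgcs1 and Idi1 of the mevalonate arm, Sqle, Lss, Cyp51, Tm7sf2 and Msmo1 of the squalene and sterol arm, the regulators Srebf2 and Insig1, and the supply genes Acss2 and Me1. The 3 were Mvd, Nsdhl and Srebf1. By role, the median log2 difference was 1.52 for the 6 mevalonate arm genes, -0.37 for the 11 squalene and sterol arm genes and -1.13 for the 4 supply genes, all 4 of which lay below 0. The mevalonate arm median turned to -0.26 without RepI and -0.64 without C114, and that of the squalene and sterol arm to 0.30 without infundibular-scored cells.

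Msmo1, the C4-methylsterol oxidase of late cholesterol synthesis (chromosome 8, 64718139 to 64733792, minus strand, GENCODE coordinates on GRCm38), had 32.7 and 65.6 CPM in the 38w replicates RepI and RepL, and 328 and 218 CPM in the 38wUW replicates RepM and RepN. The replicates of the groups did not overlap, with a log2 difference of -2.47 (SE 0.90, edgeR adjusted p = 0.617). By plate the level was 35.0 CPM on C114, 33.1 on C118 and 62.8 on C119, against 314 on C128 and 208 on C129, so that both batch tags in the labels, which pair C128 and C129 with the 38w plates in opposite ways, gave lower 38w levels. A single cell held 61.4% of the Msmo1 reads of RepM, and without the top cell of each replicate the levels were 21.7, 51.9, 139 and 181 CPM. The order of the groups was the same, with a smaller gap.

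Me1, the malic enzyme that makes NADPH (chromosome 9, 86581371 to 86695953, minus strand), had 7.73 and 13.0 CPM in RepI and RepL, against 79.5 and 32.1 in RepM and RepN. Its log2 difference was -2.43 (SE 0.94, edgeR adjusted p = 0.617), and the groups did not overlap. The top cell of RepM held 52.7% of its Me1 reads, and without the top cells the levels were 5.52, 11.2, 41.2 and 25.1 CPM.

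Sqle, the squalene epoxidase, had 25.8 and 25.5 CPM in 38w and 39.7 and 147 CPM in 38wUW (log2 difference -1.86, SE 0.93, edgeR adjusted p = 0.631). RepN was far above the other 3 replicates. Within RepI, Sqle was 9.58 CPM on C114 and 100.03 on C118, and a single cell held 67.8% of the RepI reads. The log2 difference was -0.63 without RepN and -0.51 without C114. Lss, the lanosterol synthase, had 8.75 and 9.48 CPM in 38w and 52.4 and 16.2 CPM in 38wUW (log2 difference -1.91, SE 0.98, edgeR adjusted p = 0.642). A single cell held 68.0% of the Lss reads of RepM, and without it RepM fell to 18.0 CPM. The log2 difference was -0.81 without RepM.

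Mvk, the mevalonate kinase, differed the other way only through RepI, with 48.2 CPM there and 4.46, 7.12 and 3.10 CPM in RepL, RepM and RepN (log2 difference 2.38, SE 1.19, edgeR adjusted p = 0.634). Within RepI the level was 63.2 CPM on C114 and 1.23 on C118. Without C114 the log2 difference was -0.74, which turns its direction.

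Of the regulators, Srebf1 had 42.0 and 24.9 CPM in 38w and 11 and 6.62 CPM in 38wUW (log2 difference 1.93, SE 0.96, edgeR adjusted p = 0.632). The replicates did not overlap, whereas the plate C118, with 9.21 CPM, lay below C128 with 10.6 CPM, and without C114 the log2 difference was 0.99. Srebf2 ran the other way, with 34.8 and 26.8 CPM in 38w and 44.8 and 71.4 CPM in 38wUW (log2 difference -0.92, SE 0.86, edgeR adjusted p = 0.782). Insig1 had 8.87 and 11 CPM against 15.8 and 19.9 CPM (log2 difference -0.85, SE 0.99, edgeR adjusted p = 0.826). Neither difference passed the test, though neither pair of groups overlapped.

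Scap overlapped between the groups, with 48.3 and 10.2 CPM in 38w and 20.3 and 10.5 CPM in 38wUW, and its high value came from C114 (62.1 CPM, against 6.14 on C118). The log2 difference was 0.93 (SE 1.0, edgeR adjusted p = 0.811) and -0.87 without C114. Pparg rested on few reads, with 1, 56, 35 and 66 reads in RepI, RepL, RepM and RepN, or 0.114, 10.4, 5.93 and 4.65 CPM. Its groups overlapped (log2 difference -0.02, SE 1.43, edgeR adjusted p = 0.997).

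The comparison depended on RepL. With RepL left out, RepI alone stood for 38w and was assumed to vary like the other group, and 4 of the 31 genes were called, where 9.4% of all 12932 genes were. These were Mvk (log2 difference 3.33) and Pmvk (2.80), higher in 38w, and Idi1 (-4.01) and Msmo1 (-2.99), lower in 38w. RepI is mostly plate C114. Left out in turn, each of the other replicates gave 0 calls.

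On C114 the genes of the set moved in both directions. Relative to the mean of the other 4 plates, 10 of the 31 were more than 1 log2 unit higher, led by Mvk (3.74), Pmvk (3.07), Fdps (3.06) and Elovl1 (2.84), and 11 were more than 1 log2 unit lower, led by Idi1 (-4.40), Sqle (-2.86) and Cyp51 (-2.69). The genes that were higher had a median transcript length of 1784 bases, and those that were lower one of 3001 bases. The median was also 3001 bases over all 31 genes, and 3230 bases over 9159 genes of the whole table. Across the 31 genes this log2 ratio and the length of the longest coding transcript had a Spearman rho of -0.32, and across 9159 genes of the whole table one of -0.43. Both describe a single plate over genes, which are not independent replicates. Within the mevalonate arm, Mvk (1660 bases) and Idi1 (3027 bases) ran opposite to each other on C114, and the part of transcript length in this was not tested.

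**Figure D2:**
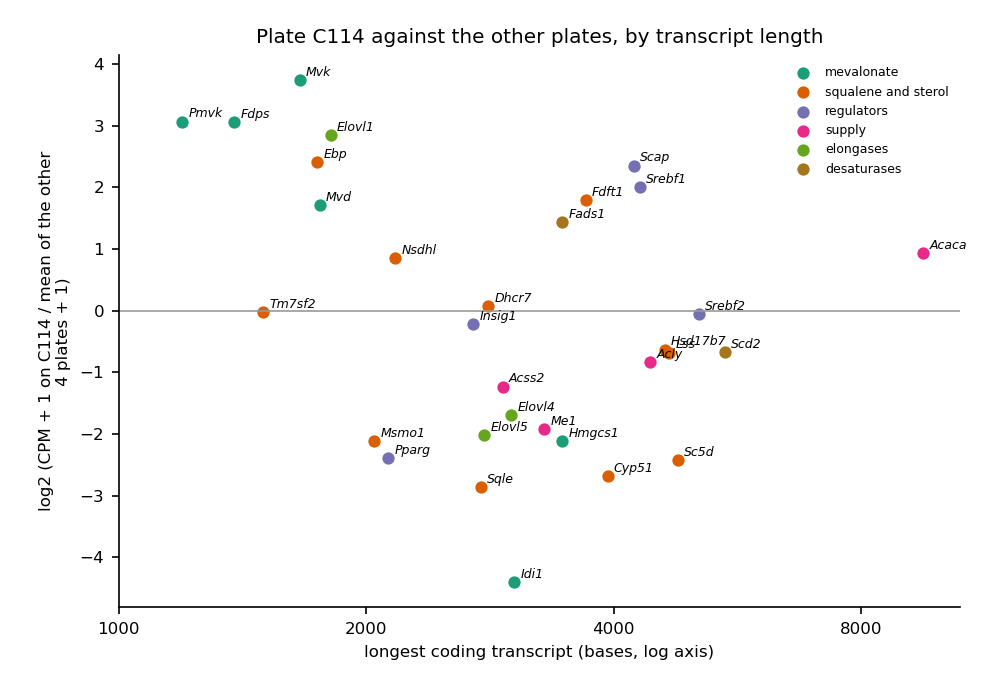
Log2 ratio of the CPM + 1 on plate C114 to the mean of the other 4 plates + 1 (vertical axis) against the length of the longest coding transcript in bases (horizontal log axis) for the 31 genes, coloured by role. Mvk, Pmvk and Fdps, which are among the shorter transcripts, lie highest at 3.06 to 3.74, and Idi1 lies lowest at -4.40.

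The number of genes of the set found per cell was compared at a common depth of 20000 reads, drawn at random from each cell that had them (277 of 310 cells). On average 5.57 (RepI) and 5.77 (RepL) of the 31 genes were found per cell of 38w, and 8.11 (RepM) and 7.08 (RepN) per cell of 38wUW. Both 38w replicates were lower, with a difference of -1.92 genes per cell (exact two-sided permutation test, p = 0.33, the smallest that 2 against 2 replicates allow). Without thinning the means were 9.04, 7.68, 10.04 and 9.92, and without C114 the thinned difference was -2.44. The median number of all genes found per cell, without thinning, was 3500 and 2899 in 38w and 3422 and 3741 in 38wUW. A count of all genes at the common depth is not given, so a difference particular to the set was not tested. By class of cell, described next, the mean number found of the 31 ranged from 4.57 in bulge-scored and 4.72 in basal-scored cells to 7.83 in sebocyte-scored, 7.71 in interfollicular-scored and 9.57 in infundibular-scored cells.

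To see which cells carried these genes, each cell was given the class whose markers, none of them genes of the set, had the highest mean z-score in it. This gave 25 sebocyte-scored, 57 interfollicular differentiated-scored, 59 infundibular and duct differentiated-scored, 55 bulge-scored, 85 basal and Transition-scored and 29 junctional zone-scored cells. A class is a range of a score and not a proven cell type, and 52 of the 310 cells lay within 0.2 of the next class. The 9 sebocyte markers measured were Mgst1, Plin2, Cidea, Far2, Dgat2, Soat1, Apoc1, Acsbg1 and Mc5r. Several of them act in lipid metabolism, so the sebocyte class was chosen partly on lipid genes. The median score of the sebocyte-scored cells was 0.85 for sebocyte markers and below 0 for the other 5 lists. That of the interfollicular-scored cells was 0.84 for their own list and below 0 for the other 5, although the keratins Krt36 and Krt84 of nail and scale were among the leading genes of this class. The infundibular-scored cells scored 1.60 on their own list and 0.27 and 0.24 on the interfollicular and junctional zone lists. They made up 15.7 and 9.33% of the 38w replicates and 29.3 and 20.5% of the 38wUW replicates, while interfollicular-scored cells made up 32.9 and 22.7% against 11 and 9.64%.

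**Figure D3:**
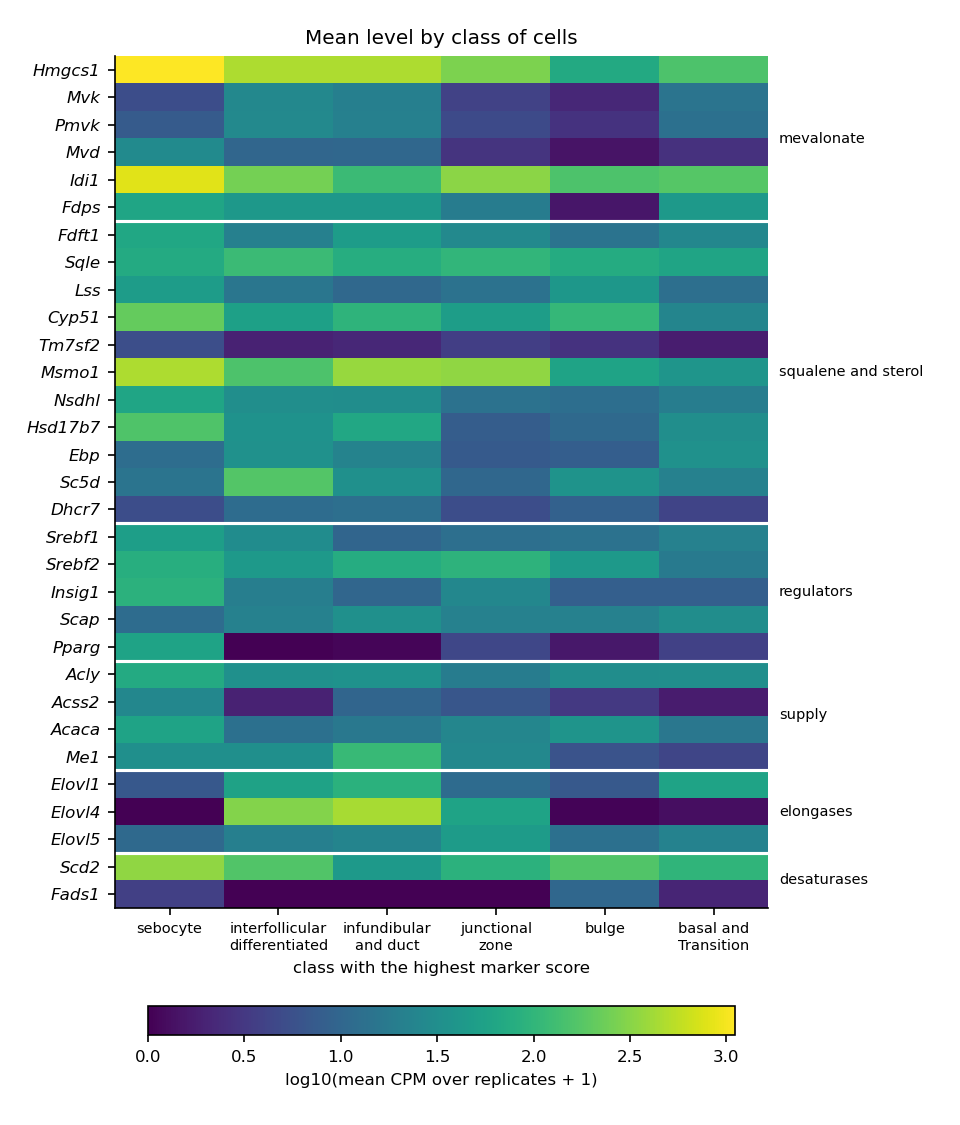
Mean CPM over replicates, as log10(mean CPM + 1), of the 31 genes (rows, by role) in the 6 classes of cells (columns), where a replicate counts in a class with at least 5 cells. Elovl4 is dark in sebocyte, bulge and basal columns and bright in both differentiated columns, whereas Pparg is bright in the sebocyte column alone.

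Sebocyte-scored cells had more Pparg than the other classes. Reads were summed per replicate and class with at least 5 cells, which leaves RepL, RepM and RepN for sebocyte-scored cells, and the class was compared with the mean of the others within replicates. Pparg reached 57.9, 72.7 and 40.1 CPM in these replicates, against a mean over the other classes of 1.17, 0 and 3.30 CPM. It was higher in 3 of 3 replicates (log2 difference 7.06, SE 1.09, edgeR adjusted p = 0.00689), though the size depends on the prior count because several classes had 0 reads. It was the 1 gene called among the 30 tested, where 0.322% of 11179 genes were called. After thinning, 7 of 24 sebocyte-scored cells had a Pparg read (29.2%, Wilson 95% interval 14.9 to 49.2%), against 9 of the 253 other cells (3.56%, 1.88 to 6.62%), and 0 of 52 interfollicular-scored cells did, which allows a share of up to 5.77%.

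The call for Pparg rested on few cells. It was lost with RepL, RepM or RepN left out (edgeR adjusted p = 0.0992, 0.207 and 0.114, log2 differences 7.6, 5.6 and 8.19) and with cells within 0.2 of another class left out (adjusted p = 0.776, log2 difference 5.92). Over its alternatives the adjusted p ranged from 0.00084 to 0.776, and the sign was the same in all of them.

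More widely, 11 of the 30 genes were higher and 1 was lower in sebocyte-scored cells at an unadjusted p under 0.05, where 4.35% of all tested genes were higher and 5.16% lower. The median log2 difference of the 30 was 1.35, against -0.16 over all tested genes, and 22 lay above 0. Without RepN 5 were higher and 0 lower, with a median of 0.69, and with scores centred within plates 5 and 0, with a median of 0.55. Cells with a margin of at least 0.2 gave 5 and 1, and thinned cells 5 and 0 of 23 tested. The shares over all tested genes in these alternatives are not given, so their counts cannot be set against them. The count of calls depended on the tool, since DESeq2 called 7 of the 30 (3.01% of all tested genes): Hmgcs1, Fdps, Nsdhl, Srebf1, Insig1 and Pparg higher, and Elovl4 lower. Values for Hmgcs1, Fdps and Nsdhl are given here for that reason, after they were seen.

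Fdps, the farnesyl diphosphate synthase, had 54.8, 54.0 and 72.3 CPM in the sebocyte-scored cells of RepL, RepM and RepN, against 10.4, 25.0 and 23.0 CPM in the other classes (log2 difference 2.69, SE 0.67, edgeR adjusted p = 0.0999). It was higher in 3 of 3 replicates. Hmgcs1 had 548, 374 and 2414 CPM, against 277, 438 and 305 CPM (log2 difference 2.04, SE 0.53, edgeR adjusted p = 0.12), and was higher in 2 of 3 replicates. In RepN 55.2% of these reads came from a single cell of 5. Nsdhl, a sterol dehydrogenase of late cholesterol synthesis, had 56.3, 95.5 and 32.1 CPM, against 17.1, 14.5 and 19.9 CPM (log2 difference 2.04, SE 0.75, edgeR adjusted p = 0.366). It was higher in 3 of 3 replicates, and in RepL its reads came from 1 cell of 10.

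Among the other regulators, Srebf1 had 75.1, 22.8 and 51.4 CPM in sebocyte-scored cells, against 13.2, 12.3 and 5.43 CPM in the others (log2 difference 2.46, SE 0.71, edgeR adjusted p = 0.184). It was higher in 3 of 3 replicates. Insig1 had 47.0, 12.5 and 210.4 CPM, against 7.45, 18.2 and 12.9 CPM (log2 difference 2.80, SE 0.86, edgeR adjusted p = 0.228). A single cell held 86.7, 50 and 74.0% of these Insig1 reads in RepL, RepM and RepN. Srebf2 (log2 difference 0.79, SE 0.57) and Scap (-0.31, SE 0.88) had edgeR adjusted p of 0.689 and 0.982. After thinning, 29.2% of sebocyte-scored cells had an Insig1 read, against 11.9% of all others, with overlapping Wilson intervals of 14.9 to 49.2% and 8.43 to 16.4%.

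The elongase gene Elovl4 was found mostly in differentiated cells. It lies on chromosome 9 at 83778692 to 83806277 (minus strand). In interfollicular-scored cells it had 183 and 448 CPM in RepI and RepL and 391 and 179 CPM in RepM and RepN, against a mean of 56.0, 60.1, 219 and 73.3 CPM over the other classes. It was higher in 4 of 4 replicates (log2 difference 6.71, SE 0.72, edgeR adjusted p = 4.29e-05), and the fitted size, which averages the other classes on the log scale, again depends on the prior count. It was the 1 gene called of the 30 tested, where 1.23% of 11179 genes were called, and it stayed called in all 13 alternatives, with adjusted p from 2.71e-11 to 0.00069.

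Infundibular-scored cells also had Elovl4 reads, with 167, 240.5 and 262 CPM in RepI, RepL and RepN and 1084 CPM in RepM, of which a single cell held 58.8%. Over all replicates, sebocyte-scored cells had 0 reads of it, bulge-scored cells 1 and basal-scored cells 4, whereas junctional zone-scored cells of RepM and RepN had 216, at 11.4 to 104.5 CPM. After thinning, 31 of 52 interfollicular-scored cells (59.6%, Wilson 95% interval 46.1 to 71.8%) and 35 of 56 infundibular-scored cells (62.5%, 49.4 to 74.0%) had an Elovl4 read. In basal-scored cells this was 1 of 74 (1.35%, 0.239 to 7.27%) and in junctional zone-scored cells 2 of 22 (9.09%, 2.53 to 27.8%). The 0 of 49 bulge-scored and 0 of 24 sebocyte-scored cells allow shares of up to 6.12 and 12.5%.

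Across all cells Elovl4 had 67.8 and 89.9 CPM in 38w and 346 and 75.7 CPM in 38wUW, and the groups overlapped (log2 difference -1.42, SE 0.92, edgeR adjusted p = 0.694). The sign turned without RepM (0.07) and without infundibular-scored cells (0.53), an alternative chosen after the shares of these cells had been seen.

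**Figure D4:**
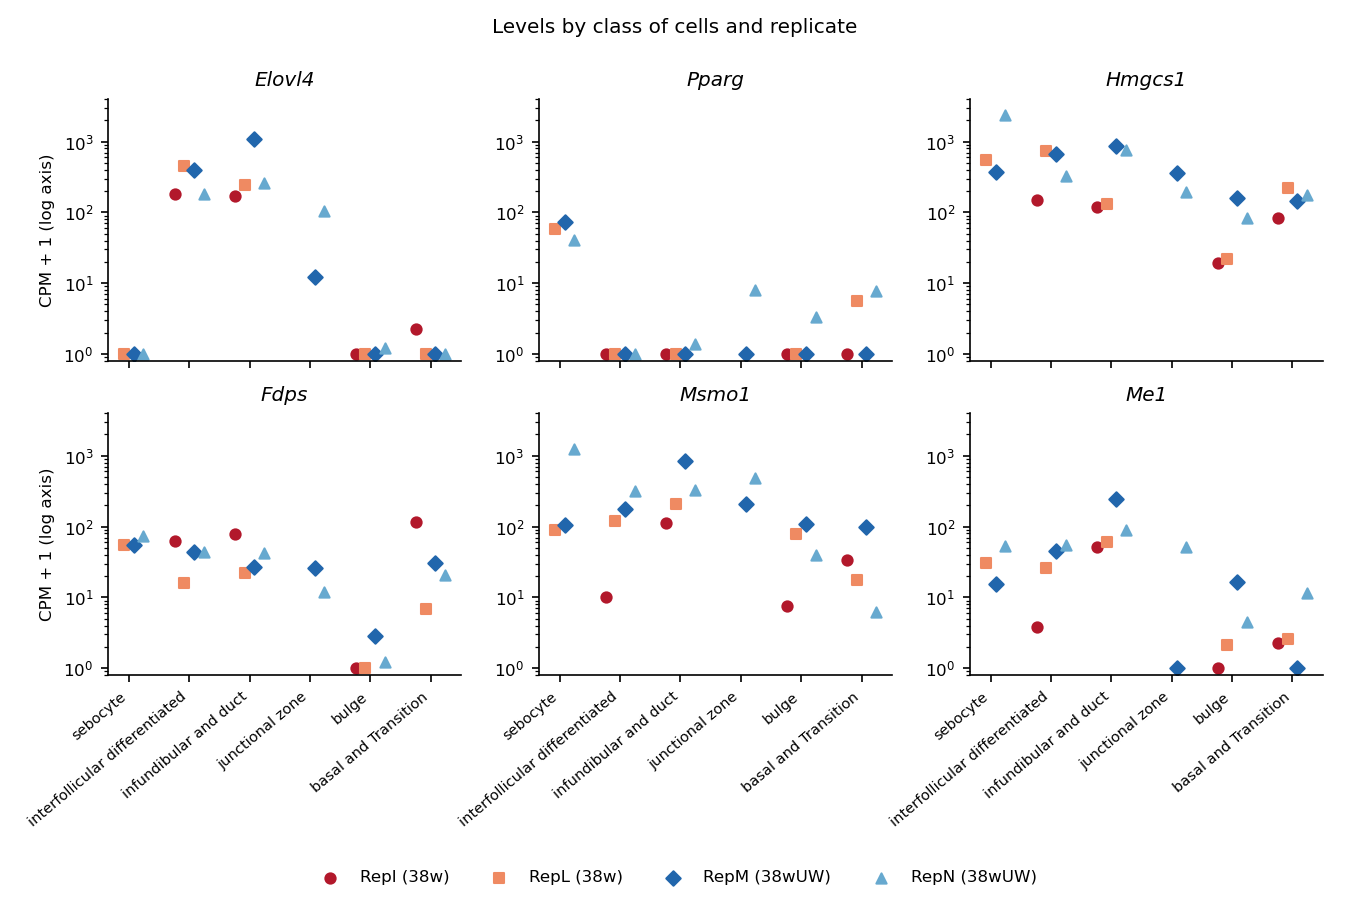
CPM + 1 (log axis) of 6 genes in each class of cells (horizontal axis), with 1 point per replicate that has at least 5 cells in the class, 38w in red tones and 38wUW in blue tones. Elovl4 lies at 167 CPM or more in both differentiated classes of every replicate and near 1 (0 reads) in sebocyte-scored cells, and Pparg lies at 40.1 CPM or more in sebocyte-scored cells of the 3 replicates shown.

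Sc5d, which introduces a double bond late in cholesterol synthesis, came next in interfollicular-scored cells, with 46.5, 407, 167 and 63.3 CPM in RepI, RepL, RepM and RepN, against 35.5, 3.77, 34.6 and 24.9 CPM in the other classes. It was higher in 4 of 4 replicates (log2 difference 3.99, SE 1.16, edgeR adjusted p = 0.111) and was called by DESeq2, which called 3.38% of all tested genes. Its reads were found in 10 of 17 interfollicular-scored cells in RepL and 4 of 23 in RepI, and a single cell held 46.9 to 82.2% of them in each replicate. Of all 30 genes 6 were higher and 1 was lower at an unadjusted p under 0.05, where 6.81% of all tested genes were higher and 3.7% lower. The median log2 difference was 0.56, against 0.03 over all tested genes. Without RepL the median was 0.06, with 4 higher and 0 lower, and the share over all tested genes there is not given. Of the regulators, Srebf1, Srebf2, Insig1 and Scap had log2 differences between -0.33 and 0.63 here, and Pparg had 0 reads in the class (edgeR adjusted p = 0.411).

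Me1 and Msmo1, the genes with the smallest p between groups, were found often in infundibular-scored cells, and Msmo1 also in junctional zone-scored cells. The shares of both classes were lower in both 38w replicates, with junctional zone-scored cells at 4.29 and 1.33% in 38w and 14.6 and 15.7% in 38wUW. After thinning, 30 of 56 infundibular-scored cells had a Me1 read (53.6%, Wilson 95% interval 40.7 to 66%), against 11 of 52 interfollicular-scored cells (21.2%, 12.2 to 34.0%). In sebocyte-scored cells this was 6 of 24 (25%), in basal-scored cells 3 of 74 (4.05%, 1.39 to 11.3%) and in bulge-scored cells 2 of 49 (4.08%, 1.13 to 13.7%). For Msmo1 the share was 33 of 56 (58.9%, 45.9 to 70.8%) in infundibular-scored and 12 of 22 (54.5%, 34.7 to 73.1%) in junctional zone-scored cells. It was 10 of 24 (41.7%) in sebocyte-scored, 17 of 52 (32.7%) in interfollicular-scored and 16 of 74 (21.6%, 13.8 to 32.3%) in basal-scored cells. The mean Msmo1 level over replicates was highest in sebocyte-scored cells (474 CPM, SD 653), then infundibular-scored (375, SD 329) and junctional zone-scored cells (344, SD 191). The sebocyte mean rested on RepN (1228 CPM), against 87.6 CPM in RepL and 105.9 CPM in RepM. By median over replicates the order differed, with 105.9 CPM in sebocyte-scored, 269 in infundibular-scored and 344 in junctional zone-scored cells. Without thinning the Msmo1 share was 64.4% in infundibular-scored and 65.5% in junctional zone-scored cells. These shares pool the replicates, which the classes hold unequally. In RepI, RepL, RepM and RepN there were 3, 1, 12 and 13 junctional zone-scored cells and 24, 29, 15 and 17 basal-scored cells. Over all thinned cells, Msmo1 was found in 22.1 and 25.7% in RepI and RepL and in 51.6 and 45.3% in RepM and RepN. How far the class shares reflect the replicates was not tested.

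Within infundibular-scored cells the levels of both genes were also lower in 38w, as values without a test. Msmo1 had 111 and 209 CPM in the 11 and 7 such cells of RepI and RepL, and 849.7 and 329 CPM in the 24 and 17 of RepM and RepN. Me1 had 49.8 and 60.1 CPM, against 245 and 87.6 CPM. A single cell held 83.1% of these Msmo1 reads in RepM and 97.5% in RepL. With infundibular-scored cells left out of all replicates, the log2 difference between groups was -2.13 for Msmo1 and -1.74 for Me1, and edgeR called 0 of the 31 genes. With junctional zone-scored cells left out, these were -2.42 and -2.48, again with 0 called. The part of the shares of cells in the differences was not tested further.

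**Figure D5:**
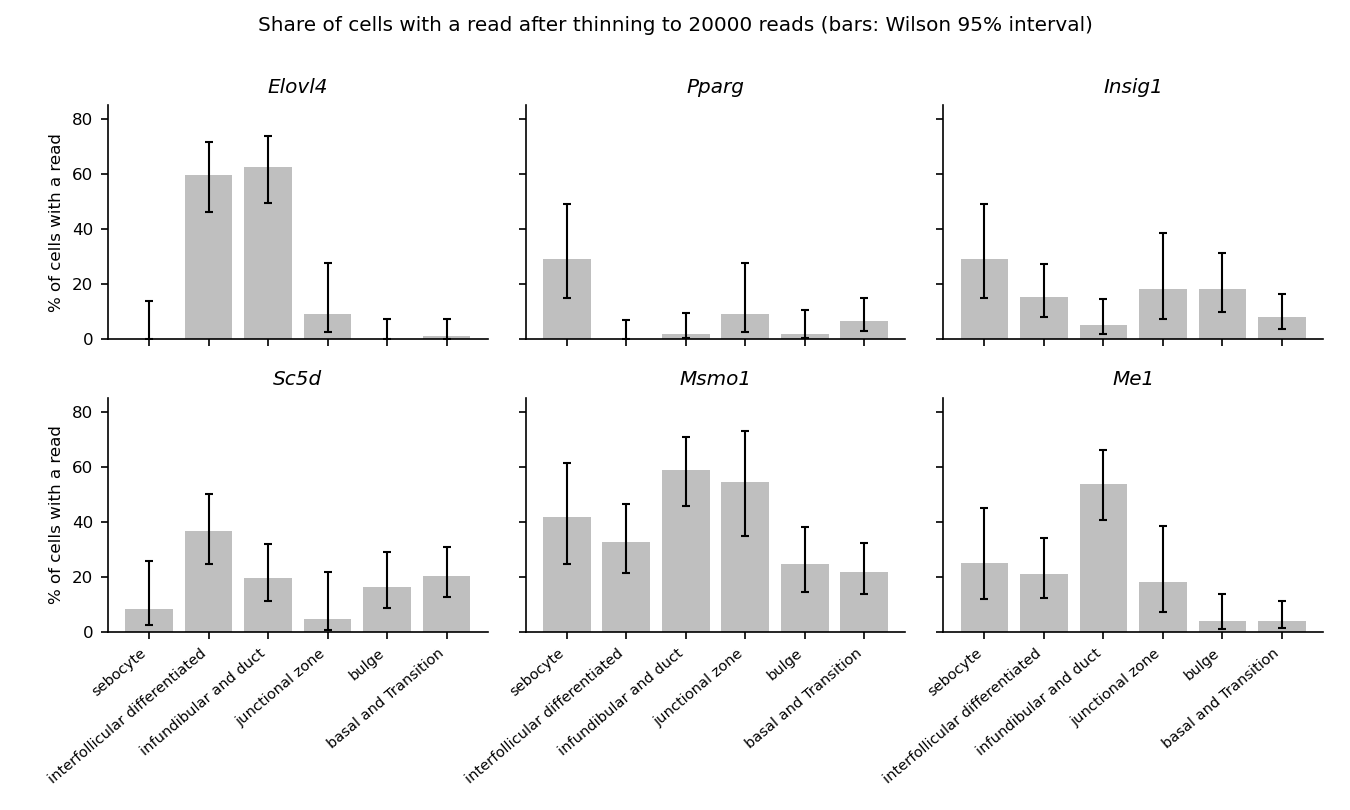
Share of cells with a read (percent, bars) after thinning to 20000 reads, by class of cells, with Wilson 95% intervals as error bars, for 6 genes. Elovl4 is found in 59.6 and 62.5% of the differentiated classes and in at most 9.09% of the other 4, Pparg in 29.2% of sebocyte-scored cells, and Me1 in 53.6% of infundibular-scored cells.

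Elovl4 and Me1 were found together in cells of the same plates. Within plates, the rank correlation of their thinned reads was 0.37 over 51 cells of C114, 0.60 over 70 of C119, 0.55 over 64 of C128 and 0.48 over 75 of C129, and -0.16 over 17 cells of C118. Hmgcs1 and Sqle had 0.14 to 0.38 on the 5 plates, and Hmgcs1 and Idi1 -0.05 to 0.39. These describe cells that share a library and hold many zeros.

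Other genes of these and related pathways were read from the same fits. Their lists were chosen with earlier results of these data known, so they are not an independent test of the class differences. The lists also hold genes that encode no synthesis enzyme, such as Tmem97 and Fabp5. Of 7 further sterol synthesis genes, 0 differed between groups, and those higher in sebocyte-scored cells included Tmem97, a sterol-regulated membrane protein (log2 difference 4.03, SE 0.70, edgeR adjusted p = 0.00726). Of 15 further fatty acid synthesis genes, 3 were higher in sebocyte-scored cells, where 0.233% of all tested genes were called higher and 0.0895% lower, among them Scd1, the stearoyl-CoA desaturase (3.92, SE 0.50, edgeR adjusted p = 0.000216), and Fasn, the fatty acid synthase (3.16, SE 0.63, edgeR adjusted p = 0.0289). In interfollicular-scored cells, where 1.1% of all tested genes were called higher and 0.134% lower, 1 of the 15 was higher, the fatty acid-binding protein gene Fabp5 (3.42, SE 0.68, edgeR adjusted p = 0.0089), and 1 lower, Acsl4, an acyl-CoA synthetase gene (-4.28, SE 0.90, edgeR adjusted p = 0.0142).

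Of 13 barrier lipid genes tested by class, 4 were higher in interfollicular-scored cells and 0 in sebocyte-scored cells. Over all tested genes, 1.1% were called higher in interfollicular-scored and 0.233% in sebocyte-scored cells. The 4 included Acer1, an alkaline ceramidase (log2 difference 3.60, SE 0.62, edgeR adjusted p = 0.0024), and Degs1, the ceramide desaturase (1.62, SE 0.31, edgeR adjusted p = 0.00698). The median log2 difference of the 13 was 1.62 in interfollicular-scored and -0.55 in sebocyte-scored cells, against 0.03 and -0.16 over all tested genes. Between 38w and 38wUW none of the tested genes of the 3 lists was called, and the smallest p were those of Ugcg, the glucosylceramide synthase (-3.05, SE 1.02, edgeR adjusted p = 0.617), Tecr, the enoyl-CoA reductase of fatty acid elongation (2.42, SE 0.95, same adjusted p), and Ggps1, the geranylgeranyl diphosphate synthase (-1.62, SE 0.87, edgeR adjusted p = 0.652).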

How the data were processed

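Single tdTomato-positive tail keratinocytes were sorted into plates and sequenced with a modified Smart-seq2 protocol without molecular identifiers. The authors mapped reads with Salmon 0.13.1 to the Ensembl mouse transcriptome (GRCm38), and deposited the unscaled estimated counts of each cell by gene (3.60% of values are not whole numbers). Because reads spread along a transcript, longer transcripts collect more of them, and related genes can share reads.

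The 310 columns were assigned to replicates by title. Counts were summed per replicate, or per replicate and class with at least 5 cells, rounded, filtered with filterByExpr, scaled with TMM factors and tested across all genes with the edgeR 4.0.16 quasi-likelihood test in R 4.3.3 (Benjamini-Hochberg adjustment, threshold 0.05). A standard error is the log2 difference divided by the square root of F. The class fit has the replicate as a block. Classes used markers scored on log-transformed counts per 10000. DESeq2 1.42.0, other scalings, filters, depths and left-out replicates, plates and cells were alternatives. The edgeR step was tested on simulated counts.

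Named with replicate values were the 6 genes with the smallest p between groups, the regulators, and genes past the threshold in a class fit. Hmgcs1, Fdps and Nsdhl were added after their values were seen, and Sc5d also falls outside this rule. For the other pathway lists, the 2 genes with the smallest p per list and fit were looked up, of which 1 is not reported here. The 32 genes, the lists and the markers were chosen with earlier results of these data known. No other column of per-sample values was left out. Doublets were not called, since the protocol sorts single cells into wells. The labels do not say whether the 2 columns with the suffix MBULK held single cells. Coordinates are those of GENCODE M21, and promoter sequences those of RefSeq on GRCm38.p6.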

Additional observations from a re-analysis of the deposited data

How the results depend on the processing

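Of the results recomputed under the alternatives, the count of 0 genes called between 38w and 38wUW moved in 1 of 18, to 4 without RepL (leave-one-out range 0 to 4). With plates as units, the labels' batch tags used as a pairing or replicate block gave 0 called genes under either tag. The block was possible only through those tags, since the replicate names of the groups do not match. The count of 1 in sebocyte-scored cells was 7 with DESeq2, 2 with DESeq2 size factors and 0 with cells within 0.2 of another class left out (leave-one-out range 0 to 1). The count of 1 in interfollicular-scored cells was 2 with DESeq2 and 2 with thinned cells (leave-one-out range 1 to 2). Without the replicate block both class fits called 1.

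Signs turned in uncalled differences between groups. Mvk was -0.74 and Scap -0.87 without C114, with leave-one-out ranges of -0.18 to 3.33 and -0.58 to 1.73. Pparg, at -0.0206, was 0.0654 with DESeq2, 0.0607 with its size factors, 0.055 without C114 and 0.28 without sebocyte-scored cells, with a leave-one-out range of -5.32 to 0.98. Elovl4 was 0.53 without infundibular-scored cells, with a leave-one-out range of -2.13 to 0.0733. The cause was not tested. With 2 replicates a group and few reads for genes such as Pparg, small differences were not detectable at this depth. Leaving out infundibular-scored or junctional zone-scored cells between groups, columns with a name suffix in the class fits, and C114 from the genes found per cell were alternatives chosen after seeing the data.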
